A study of Homo sapiens with 8 samples.

Results

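The EGF receptor family, its ligands and the receptor inhibitor ERRFI1 were followed in A549 cells, an established epithelial line from a human lung adenocarcinoma. The set holds 10 of the 19158 genes measured: the receptors EGFR, ERBB2, ERBB3 and ERBB4, the ligands AREG, EREG, HBEGF, TGFA and BTC, and ERRFI1. Members were taken by gene symbol, and each symbol matched 1 gene. One group of 4 wells was left untreated and one group of 4 wells received the synthetic glucocorticoid dexamethasone at 1 µM for 48 h. All wells held A549 cells labelled wild type, grown in DMEM with 5% fetal bovine serum, and all carried the same batch label. Each well gave 1 library, numbered 1, 3, 4 and 5 in both groups. The wells are cultures of a single line, so p-values measure the spread between these wells. In bulk RNA, fewer cells with a transcript and less transcript per cell cannot be told apart.

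The family works as a relay at the cell surface. Ligands are made as membrane-bound precursors, are cut free by ADAM proteases and bind EGFR or its relatives, which then pair and phosphorylate each other. ERBB2 binds no known ligand and acts as a partner, ERBB3 has a kinase domain with little catalytic activity, and signals pass to the RAS-ERK and PI3K pathways. ERRFI1, also called MIG6, binds the kinase domain of the receptors and holds it inactive. In lung epithelium EGFR signalling supports growth and repair.

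Values are FPKM, fragments scaled by transcript length and by library size, and are printed as deposited unless called scaled. Steps between low values corresponded to about 24680000 to 28890000 fragments per library. FKBP5, a classical glucocorticoid-induced gene, averaged 5.80 ± 1.78 FPKM without and 136 ± 37.6 FPKM with dexamethasone (SD, n = 4 each). Of 5 epithelial markers, 4 were at 1 FPKM or more in every library and EPCAM was at 0.140 to 0.765 FPKM. The summed markers of other cell types were low: fibroblast markers reached 1.82 to 2.30 FPKM in untreated and 0.598 to 0.754 FPKM in dexamethasone libraries, endothelial markers at most 0.180 FPKM in any library, and leukocyte markers 2.50 to 3.46 and 1.38 to 1.80 FPKM, with PTPRC and CD3E at 0 throughout. All 3 of these sums were lower with dexamethasone without overlap (endothelial 0.0692 to 0.180 against 0.00702 to 0.0327 FPKM). Most of the leukocyte sum was CD14, at 2.01 to 3.14 FPKM in untreated and 1.19 to 1.56 FPKM in dexamethasone libraries. CD79A was at 0.316 to 0.730 and 0.150 to 0.241 FPKM. Single markers did not all follow: COL1A1 was at 1.79 to 2.25 FPKM in untreated and 0.274 to 0.437 FPKM in dexamethasone libraries, whereas DCN was listed at 0 in untreated and stood at 0.178 to 0.355 FPKM in dexamethasone libraries. The part of these markers in the results was not tested. Both libraries numbered 5 stood apart. Untreated replicate 5 had 10555 genes at 1 FPKM or more, against 11290 to 11378 in the other untreated libraries, and it held the lowest value of its group for 8 of the 9 members tested (6 after scaling between libraries). Dexamethasone replicate 5 held the lowest value of its group for 7 of these 9 (6 after scaling). Mitochondrial genes took 1.74% to 6.04% of the summed FPKM in untreated and 2.55% to 9.44% in dexamethasone libraries, lowest in replicate 5 of each group, and their part in the results was not tested. The fold change of each tested member is therefore also given without both of these libraries.

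Dexamethasone-treated cells had more ERRFI1 and EGFR transcript and less of AREG, EREG, HBEGF and TGFA. ERBB2, ERBB3 and BTC did not pass the test, and ERBB4 was at or near 0. Differences were tested with limma on log2(FPKM + 1) after scaling between libraries, over the 12161 genes at 0.5 FPKM or more in at least 4 libraries, and a gene was called at a Benjamini-Hochberg adjusted p under 0.05. Of the 10 members 9 were tested, and 6 were called, where 26.8% of all tested genes were called. The calls were 2 members higher, beside 12.6% of all tested genes, and 4 lower, beside 14.2%. The members and the gene lists read below were chosen with earlier results of these data known. Their counts beside these shares are therefore a description. Without both libraries numbered 5 the member counts were again 2 higher and 4 lower. More genes were called over the whole table in that setting, 2768 higher and 2765 lower, against 1532 and 1727 with all 8 libraries.

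**Figure D1:**
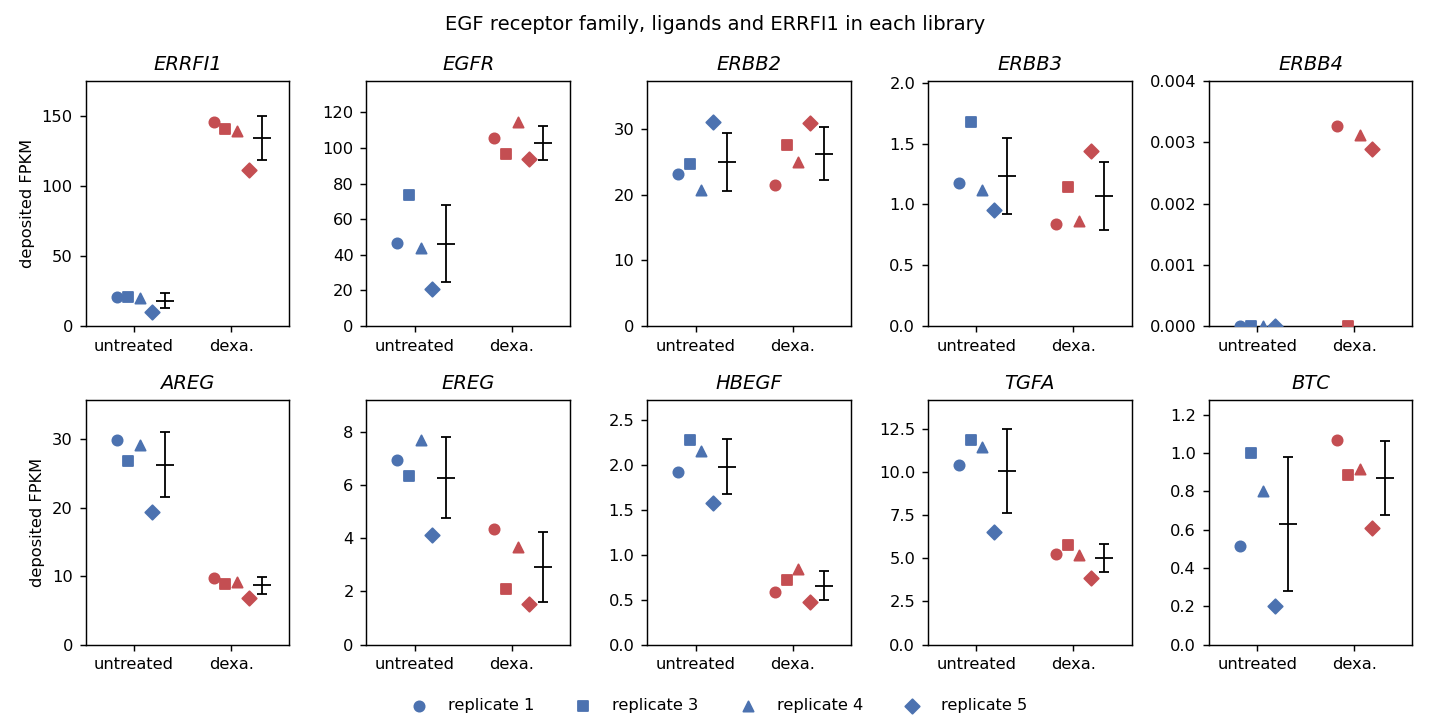
Deposited FPKM (linear axes from 0) of the 10 members in the 4 untreated (blue) and 4 dexamethasone (red) libraries, with marker shape giving the replicate number and black bars the mean ± SD (no bar for ERBB4, where all points are at or below 0.00327 FPKM). ERRFI1 lies at 111 to 146 FPKM with dexamethasone and at 9.84 to 21.0 FPKM without, while AREG lies at 6.86 to 9.73 FPKM with and at 19.4 to 29.8 FPKM without.

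Stretches of DNA upstream of 4 members are shown to set start sites of genes that moved in opposite directions side by side: ERRFI1 and EGFR, the called members that rose, and AREG and EREG, neighbouring ligand genes that both fell. They are the 250 bases before the RefSeq start site (GRCh38.p14), on the gene's own strand, 5′ to 3′, and 9 of the 10 members had an entry. Capitals mark matches, on either strand, to AGAACA, the core hexamer of the glucocorticoid response element, to the AP-1 site TGANTCA, to the cyclic AMP response element TGACGTCA or to the TATA box TATAAA.
ERRFI1 (chr1:8026310-8026559, minus strand): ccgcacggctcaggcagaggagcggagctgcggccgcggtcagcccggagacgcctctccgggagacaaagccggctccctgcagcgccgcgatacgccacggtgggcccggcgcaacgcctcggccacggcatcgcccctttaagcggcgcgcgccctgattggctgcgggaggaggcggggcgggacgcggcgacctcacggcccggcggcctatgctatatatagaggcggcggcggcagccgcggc
EGFR (chr7:55018767-55019016, plus strand): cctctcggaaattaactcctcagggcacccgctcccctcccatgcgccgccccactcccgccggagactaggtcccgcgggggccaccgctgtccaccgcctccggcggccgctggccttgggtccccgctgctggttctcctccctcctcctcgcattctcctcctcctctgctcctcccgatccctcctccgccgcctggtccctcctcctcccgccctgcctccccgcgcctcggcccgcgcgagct
AREG (chr4:74444886-74445135, plus strand): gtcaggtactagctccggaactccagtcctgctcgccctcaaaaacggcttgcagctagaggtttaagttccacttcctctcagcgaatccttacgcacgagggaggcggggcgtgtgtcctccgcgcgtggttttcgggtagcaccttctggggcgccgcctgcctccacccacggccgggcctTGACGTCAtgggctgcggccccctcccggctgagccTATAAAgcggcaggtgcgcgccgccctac
EREG (chr4:74364895-74365144, plus strand): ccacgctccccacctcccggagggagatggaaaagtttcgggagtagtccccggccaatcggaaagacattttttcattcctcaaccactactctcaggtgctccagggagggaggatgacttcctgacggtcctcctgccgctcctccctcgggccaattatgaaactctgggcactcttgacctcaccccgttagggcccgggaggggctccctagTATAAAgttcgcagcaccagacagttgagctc
The ERRFI1 and EGFR windows shown were rich in G and C, at 75.2% and 73.6%, and held none of the searched letter strings. Near its 3′ end the ERRFI1 window holds the letters TATATATA, which a search for TATAAA does not match. A TATA-like stretch before ERRFI1 is therefore not excluded. AREG and EREG each held a TATA box, 29 and 32 bases before the start site, as did 10.7% of 35116 windows of this length. The window before an internal EGFR start (chr7:55109589-55109838) held TATA boxes 36 and 146 bases before that start. Of the other members called lower, HBEGF had a window at 76.4% G and C without any of the searched strings. The TGFA windows were at 75.6% and 64.0%, without TATAAA. AREG also held the cyclic AMP response element 65 bases before its start, a match found in 1.65% of windows. The core hexamer AGAACA was in 12.4% of windows, among them 1 of the pair of TGFA windows, 46 bases before that start, and the ERBB4 window. The AP-1 letters, found in 6.57% of windows, were in the ERBB2 window and at 2 places in the internal EGFR window. These are letter matches within 250 bases and carry no statement about binding.

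ERRFI1 rose most among the members. The gene (ENSG00000116285, chromosome 1, 8004404 to 8026308, minus strand) measured 20.7, 21.0, 20.2 and 9.84 FPKM across the untreated wells (replicates 1, 3, 4 and 5, the order kept below) and 146, 141, 139 and 111 FPKM across the treated wells. Every dexamethasone library lay far above every untreated one, and within each group replicate 5 was the lowest. The means were 17.9 ± 5.39 and 134 ± 15.6 FPKM (SD, n = 4 each), a ratio of 7.50. The fitted log2 fold change, of scaled log2(FPKM + 1), was 2.89 with an SE of 0.17 (95% interval 2.51 to 3.27, adjusted p = 3.92e-06 by limma), and 2.78 without both libraries numbered 5. An lncRNA on the opposite strand overlaps the gene, and whether counting used strand is not given in the sources used here.

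EGFR, the receptor that binds all 5 of the member ligands, was the called receptor. The gene (ENSG00000146648, chromosome 7, 55019021 to 55211628, plus strand) measured 46.4, 73.7, 43.9 and 20.8 FPKM across the untreated wells and 106, 96.6, 115 and 93.8 FPKM across the treated wells. The groups did not overlap, as for 12.3% of tested genes in the upward direction, but the untreated libraries spread more than 3-fold while the dexamethasone libraries were close together. Means were 46.2 ± 21.7 and 103 ± 9.47 FPKM (SD, n = 4 each), a ratio of 2.22. The log2 fold change was 1.26 with an SE of 0.253 (95% interval 0.69 to 1.83, adjusted p = 0.00542 by limma). It was 1.03 without both libraries numbered 5 and ranged from 1.00 to 1.48 when single libraries were left out, with adjusted p from 0.00123 to 0.0203. EGFR-AS1, an lncRNA, overlaps EGFR on the opposite strand.

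ERBB2, the partner receptor without a ligand of its own (ENSG00000141736, chromosome 17, 39687914 to 39730534, plus strand), measured 23.2, 24.7, 20.8 and 31.1 FPKM across the untreated wells and 21.5, 27.5, 24.98 and 31.0 FPKM across the treated wells. The ranges overlapped almost wholly, and replicate 5 was the highest library in both groups. The log2 fold change was 0.07 with an SE of 0.224 (95% interval -0.43 to 0.57, adjusted p = 0.837 by limma), and 0.15 without both libraries numbered 5. PGAP3 and MIEN1 overlap ERBB2 on the opposite strand.

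ERBB3, a receptor for neuregulins (ENSG00000065361, chromosome 12, 56076799 to 56103505, plus strand), was low: 1.18, 1.68, 1.12 and 0.956 FPKM across the untreated and 0.840, 1.15, 0.864 and 1.44 FPKM across the treated wells. The ranges overlapped. The log2 fold change was -0.10 with an SE of 0.134 (95% interval -0.40 to 0.20, adjusted p = 0.597 by limma), and -0.22 without both libraries numbered 5. A gene annotated on the same strand overlaps ERBB3, which makes its level uncertain. ERBB4, the other neuregulin receptor (ENSG00000178568, chromosome 2, 211375717 to 212538841, minus strand), had a listed value of 0 in every untreated well and in dexamethasone replicate 3, and stood at 0.00327, 0.00312 and 0.00289 FPKM in dexamethasone replicates 1, 4 and 5. With the longest annotated transcript and the estimated depth these values correspond to 1.00, 1.01 and 1.01 fragments, and 3 fragments would give 0.00858 to 0.01 FPKM. ERBB4 was thus not detectable at this depth in either group and was not tested.

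Receptor transcripts shifted toward EGFR. EGFR made up 61.3% ± 15.1 of the summed receptor FPKM in untreated and 78.9% ± 3.85 in dexamethasone libraries (SD, n = 4 each), with ranges of 39.3% to 73.7% and 74.3% to 82.5%. The ratio of ERBB2 to EGFR within a library was compared with an exact two-sided permutation test, in a family of 4 ratios of members. Its log2 value went from -0.77 ± 0.937 to -1.98 ± 0.327 (SD, n = 4 each), a difference of -1.21 (exact permutation p = 0.0286, adjusted over the 4 ratios p = 0.0381). The log2 ratio of ERBB3 to EGFR went from -5.11 ± 0.463 to -6.60 ± 0.484, a difference of -1.49 (exact permutation p = 0.0286, adjusted p = 0.0381, n = 4 each). With 4 against 4 libraries no p can fall below 0.0286, and with any 1 library left out the adjusted p for both ratios and for ERRFI1 to EGFR was 0.0381 to 0.0762. Untreated replicate 5 was the only library with a higher FPKM for ERBB2 than for EGFR, at a log2 ratio of 0.58. Without it the ERBB2 to EGFR difference was -0.76 with an adjusted exact permutation p of 0.0762. That difference is smaller by more than 1.5 times without this library.

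**Figure D2:**
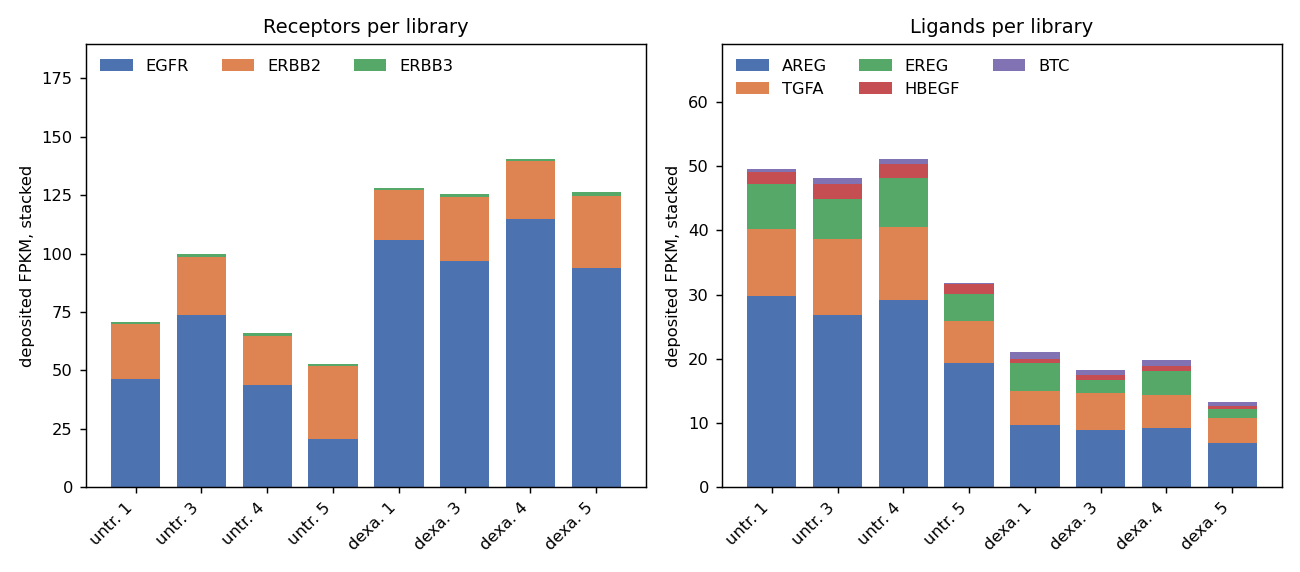
Stacked deposited FPKM (y axis) of the receptors (left) and of the ligands (right) in each of the 8 libraries (x axis; untr., untreated; dexa., dexamethasone), with ERBB4 too low to draw. The receptor sum is 52.8 to 99.99 FPKM in untreated and 125 to 141 FPKM in dexamethasone libraries, and the ligand sum is 31.8 to 51.2 and 13.3 to 21.0 FPKM.

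Of the 5 ligands, 4 were lower after dexamethasone. AREG (amphiregulin, ENSG00000109321, chromosome 4, 74445134 to 74455009, plus strand), a lower-affinity EGFR ligand, measured 29.8, 26.8, 29.1 and 19.4 FPKM across the untreated wells and 9.73, 8.85, 9.17 and 6.86 FPKM across the treated wells. The groups lay apart, as for 19.2% of tested genes in the downward direction, with replicate 5 lowest in each. Means were 26.3 ± 4.76 and 8.65 ± 1.25 FPKM (SD, n = 4 each), 3.04 times lower after dexamethasone. The log2 fold change was -1.49 with an SE of 0.122 (95% interval -1.77 to -1.22, adjusted p = 2.12e-05 by limma), and -1.48 without both libraries numbered 5.

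HBEGF (heparin-binding EGF-like growth factor, which also binds ERBB4; ENSG00000113070, chromosome 5, 140332843 to 140346631, minus strand) measured 1.91, 2.27, 2.15 and 1.58 FPKM across the untreated wells and 0.589, 0.716, 0.842 and 0.476 FPKM across the treated wells. No dexamethasone library reached the lowest untreated one. Means were 1.98 ± 0.307 and 0.656 ± 0.158 FPKM (SD, n = 4 each), 3.02 times lower. Because these levels are close to the pseudocount of 1, the log2 fold change of -0.85 with an SE of 0.0942 (95% interval -1.06 to -0.64, adjusted p = 0.000158 by limma) understates this ratio, and with a pseudocount of 0.1 it was -1.48. It was -0.83 without both libraries numbered 5.

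TGFA (transforming growth factor alpha, a high-affinity EGFR ligand; ENSG00000163235, chromosome 2, 70447280 to 70554193, minus strand) measured 10.4, 11.8, 11.4 and 6.50 FPKM across the untreated wells and 5.23, 5.75, 5.21 and 3.82 FPKM across the treated wells. The lowest untreated library, replicate 5, was still above the highest dexamethasone library. Means were 10.03 ± 2.43 and 5.00 ± 0.827 FPKM (SD, n = 4 each), 2.01 times lower. The log2 fold change was -0.86 with an SE of 0.139 (95% interval -1.17 to -0.55, adjusted p = 0.0015 by limma). It was -0.89 without both libraries numbered 5. The lncRNA TGFA-IT1 lies within TGFA on the same strand.

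EREG (epiregulin, a ligand of EGFR and ERBB4; ENSG00000124882, chromosome 4, 74364533 to 74388751, plus strand) measured 6.95, 6.34, 7.69 and 4.14 FPKM across the untreated wells and 4.36, 2.07, 3.68 and 1.54 FPKM across the treated wells. Untreated replicate 5 was below dexamethasone replicate 1 in deposited FPKM, so EREG was the called member whose groups overlapped; after scaling between libraries these were at 5.05 and 4.16. Means were 6.28 ± 1.53 and 2.91 ± 1.33 FPKM (SD, n = 4 each), 2.16 times lower. The log2 fold change was -0.94 with an SE of 0.22 (95% interval -1.43 to -0.45, adjusted p = 0.0115 by limma), and -0.86 without both libraries numbered 5.

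BTC (betacellulin, a ligand of EGFR and ERBB4; ENSG00000174808, chromosome 4, 74744759 to 74794686, minus strand) was the least abundant ligand in untreated cells, at 0.516, 1.00, 0.801 and 0.201 FPKM, against 1.07, 0.883, 0.920 and 0.607 FPKM in dexamethasone replicates 1, 3, 4 and 5. The groups overlapped, and the log2 fold change of 0.23 with an SE of 0.137 (95% interval -0.08 to 0.54, adjusted p = 0.238 by limma) did not pass the test. It was 0.18 without both libraries numbered 5, and -0.069 once the dependence on GC content was fitted and subtracted per library.

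EREG, AREG and BTC lie in one cluster on chromosome 4. EREG ends 56382 bases before AREG starts, and 289749 bases separate AREG from BTC, which is on the other strand. The neighbours EREG and AREG were both called lower, whereas BTC was not called in either direction. The log2 ratio of AREG to EREG was 2.08 ± 0.126 in untreated and 1.68 ± 0.515 in dexamethasone libraries (SD, n = 4 each), a difference of -0.40 that did not pass the test (exact permutation p = 0.286, adjusted over 4 ratios p = 0.286). In dexamethasone replicates 1 and 4 the ratio was 1.16 and 1.316, and in replicates 3 and 5 it was 2.09 and 2.15, within the untreated range of 1.92 to 2.22.

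Summed over the 5 ligands, 45.2 ± 9.0 FPKM in untreated cells compared with 18.1 ± 3.38 FPKM after dexamethasone (SD, n = 4 each). AREG made up 58.4% ± 2.57 of this sum without and 48.2% ± 2.49 with dexamethasone, and TGFA 22.1% ± 1.81 and 27.9% ± 2.88. BTC went from 1.33% ± 0.63 to 4.78% ± 0.234 of the sum. These sums describe transcript levels and were not tested.

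The FPKM of ERRFI1 went from below to above that of its target EGFR. The level of this ratio depends on the transcript length used for each gene, which is not given. Its change between the groups does not, where the same lengths were used in all libraries. The ratio of ERRFI1 to EGFR was 0.445, 0.285, 0.460 and 0.474 in untreated and 1.38, 1.46, 1.21 and 1.19 in dexamethasone replicates 1, 3, 4 and 5. Every dexamethasone library was above 1 and every untreated library was below it. The log2 ratio rose by 1.68 (exact permutation p = 0.0286, adjusted over 4 ratios p = 0.0381, n = 4 each), and by 1.80 without both libraries numbered 5. The summed ligands, set against EGFR, went from a ratio of 1.11 ± 0.361 to 0.176 ± 0.0249 (SD, n = 4 each).

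In order of mean FPKM, untreated cells had EGFR first, then AREG, ERBB2, ERRFI1, TGFA, EREG, HBEGF, ERBB3, BTC and ERBB4. The ranges of neighbours in this order overlapped, except between EREG and HBEGF and between BTC and ERBB4. After dexamethasone the order was ERRFI1, EGFR, ERBB2, AREG, TGFA, EREG, ERBB3, BTC, HBEGF and ERBB4. There the ranges overlapped between ERRFI1 and EGFR, TGFA and EREG, ERBB3 and BTC, and BTC and HBEGF, and were apart elsewhere. AREG moved from rank 2 to rank 4, and HBEGF from rank 7 to rank 9.

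**Figure D3:**
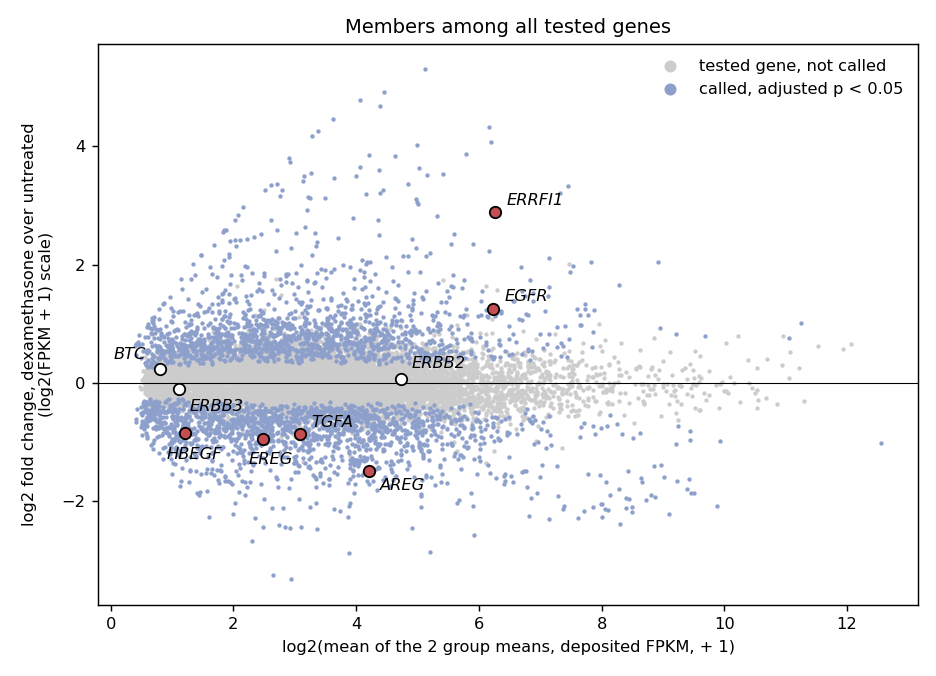
Fitted difference in log2(FPKM + 1), dexamethasone minus untreated, (y axis) against mean level (x axis, log2 scale) for the 12161 tested genes, with called genes in blue, called members in red and members not called in white. ERRFI1 at 2.89 and EGFR at 1.26 lie above, and AREG at -1.49 lies lowest among the members.

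**Figure D4:**
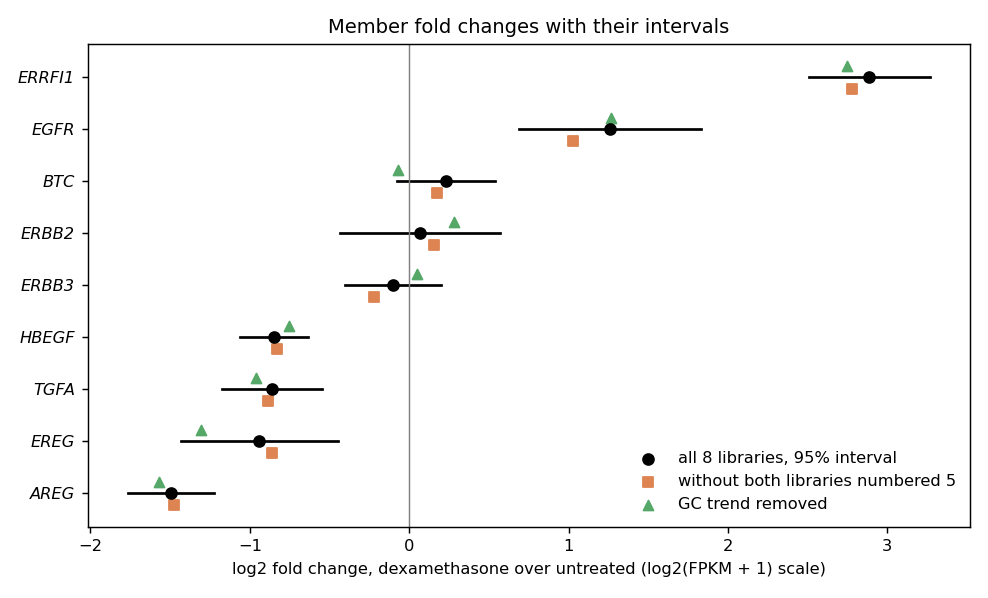
Fitted difference in log2(FPKM + 1), dexamethasone minus untreated, (x axis) of the 9 tested members (y axis) with 95% intervals from limma over 8 libraries (black), without both libraries numbered 5 (orange squares) and with each library's GC trend removed (green triangles). The intervals of ERRFI1, EGFR, HBEGF, TGFA, EREG and AREG exclude 0, and those of BTC, ERBB2 and ERBB3 include it.

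The genes with the pattern most like ERRFI1 over the 8 libraries, by Pearson correlation of scaled log2(FPKM + 1), were STOM (r = 0.9997), TLCD2 (0.999), GOLPH3 (0.998), DKK1 (0.998) and EPB41L4A (0.998). STOM, a membrane scaffold protein, rose from 31.6 ± 10.1 to 315 ± 32.2 FPKM (SD, n = 4 each; log2 fold change 3.34, limma adjusted p = 2.88e-06). DKK1, a secreted Wnt antagonist, rose from 76.7 ± 20.5 to 278 ± 32.2 FPKM (log2 fold change 1.88, limma adjusted p = 3.01e-05). For AREG, the called lower member with the smallest p, they were TRIML2 (r = 0.997), CEACAM6 (0.996), PASK (0.992), FRMD4A (0.992) and MB21D2 (0.992). CEACAM6, a cell adhesion glycoprotein, fell from 11.9 ± 3.52 to 1.318 ± 0.341 FPKM (log2 fold change -2.44, limma adjusted p = 1.13e-05). These correlations are over 8 libraries that share treatment and are a description; in all 5 genes most like ERRFI1 untreated replicate 5 was also the lowest untreated library.

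The other ligands of the family were read in the same fit. Of 6, 5 were in the table and 2 were tested. NRG1, which encodes neuregulins that bind ERBB3 and ERBB4, was the more abundant, with 52.6, 57.2, 56.8 and 32.1 FPKM across the untreated and 24.7, 20.6, 24.0 and 16.6 FPKM across the treated wells. It fell, with groups that did not overlap and a log2 fold change of -1.16 with an SE of 0.147 (adjusted p = 0.000367 by limma). Its untreated mean of 49.7 ± 11.9 FPKM stood beside 45.2 FPKM for the sum of the 5 member ligands. NRG2 was at 1.96 ± 0.261 and 2.27 ± 0.183 FPKM and did not pass the test (limma adjusted p = 0.394), and EGF, NRG3 and NRG4 were too low to be tested.

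Among 11 genes of ligand shedding, all tested, 3 were higher and 2 lower, a share called of 45.5% beside 26.8% of all tested genes. The median log2 fold change was 0.01, as over all tested genes. ADAM9 rose from 32.7 ± 13.1 to 68.5 ± 13.4 FPKM (log2 fold change 1.13, limma adjusted p = 0.0078) and ADAM15 from 23.5 ± 4.28 to 52.7 ± 9.34 FPKM (1.13, adjusted p = 0.00649); both are membrane metalloproteases. ADAM19, of the same family, fell from 6.10 ± 0.688 to 2.51 ± 0.128 FPKM (-1.02, adjusted p = 0.00047). ADAM17, the main protease releasing AREG, TGFA and HBEGF, was at 12.3 ± 3.43 and 12.1 ± 1.24 FPKM and did not pass the test (0.01, SE 0.145, adjusted p = 0.951). The other called genes were ADAM10 (0.90, limma adjusted p = 0.0225) and RHBDF2 (-0.50, limma adjusted p = 0.0319). The count of higher genes was 2 without untreated replicate 1, without dexamethasone replicate 1 or 4, and with no scaling between libraries. The count of lower genes was 1 without untreated replicate 1 or 3, or without dexamethasone replicate 1, 3 or 4.

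Adaptors and effectors that bind the activated receptors had 1 of 16 tested genes higher and 2 lower, a share called of 18.8% beside 26.8% of all tested genes, with a median of 0.08. GRB7, an adaptor that binds ERBB2, fell from 9.36 ± 1.87 to 3.83 ± 0.594 FPKM (log2 fold change -1.10, SE 0.214, limma adjusted p = 0.00452). SHC1, the adaptor that links receptors to GRB2, rose from 62.5 ± 3.87 to 98.2 ± 7.81 FPKM (0.64, SE 0.171, adjusted p = 0.0217). VAV2, an exchange factor, fell with a log2 fold change of -0.48 (SE 0.138, adjusted p = 0.03). The call of SHC1 was lost without untreated replicate 1, 3 or 4 or dexamethasone replicate 3 (0.63, 0.57, 0.58 and 0.64). That of VAV2 was lost without untreated replicate 1 or 3 or dexamethasone replicate 1, 3 or 4 (-0.47, -0.49, -0.43, -0.50 and -0.41) and with the GC trend removed (-0.26). Without both libraries numbered 5 this list had 4 higher and 4 lower, where 2768 and 2765 of all tested genes were called.

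Of 14 tested regulators of receptor removal and dephosphorylation, a list that holds genes acting in opposite ways, 2 were higher and 3 lower. The share called was 35.7% beside 26.8% of all tested genes, with a median of 0.24. LRIG1, a membrane protein that promotes degradation of ERBB receptors, fell from 3.55 ± 0.885 to 1.12 ± 0.193 FPKM (log2 fold change -1.08, SE 0.121, limma adjusted p = 0.000172). UBASH3B, a phosphatase that opposes CBL-driven loss of EGFR, fell from 19.7 ± 5.54 to 8.84 ± 1.07 FPKM (-1.04, SE 0.153, adjusted p = 0.000911). PTPRK, a receptor phosphatase that acts on EGFR, rose from 10.3 ± 2.24 to 19.3 ± 1.54 FPKM (0.86, SE 0.125, adjusted p = 0.000747). The other called genes were CBLB, which rose (0.98, SE 0.149, limma adjusted p = 0.00113), and SH3KBP1, which fell (-0.54, SE 0.116, limma adjusted p = 0.00745). Without both libraries numbered 5 the list had 3 higher and 3 lower, where 2768 and 2765 of all tested genes were called.

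Of 12 endocytic sorting genes tested, 1 was higher and 0 lower, a share of 8.33% against 26.8% of all tested genes, with a median log2 fold change of 0.29. The higher gene was RAB11FIP1, a recycling adaptor, at 9.70 ± 1.11 and 17.1 ± 1.14 FPKM (0.76, SE 0.108, limma adjusted p = 0.000675). The count of higher genes was 2 without untreated replicate 3, and 3 without untreated replicate 4 or dexamethasone replicate 5. Without both libraries numbered 5 the list had 5 higher and 2 lower, where 2768 and 2765 of all tested genes were called.

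Genes widely used as readouts of ERK signalling, the pathway below the receptors, gave these counts: of 10 tested, 6 were lower and 0 higher, beside 14.2% and 12.6% of all tested genes. The median log2 fold change was -0.50. ETV4, an ETS factor, fell from 28.3 ± 4.61 to 9.77 ± 1.204 FPKM (-1.44, SE 0.208, limma adjusted p = 0.000795). PHLDA1 fell from 16.5 ± 3.74 to 7.65 ± 0.738 FPKM (-1.001, SE 0.135, adjusted p = 0.000498), and EPHA2, itself a receptor tyrosine kinase, from 85.1 ± 4.35 to 49.5 ± 2.63 FPKM (-0.77, SE 0.147, adjusted p = 0.00381). SPRY2 (-0.61), DUSP4 (-0.51) and ETV5 (-0.50) were the other called genes, whereas CCND1 was at 85.7 ± 19.4 and 90.8 ± 8.36 FPKM and had a log2 fold change of 0.10 (adjusted p = 0.585). SPRY4 (-0.33, limma adjusted p = 0.0626), DUSP6 (-0.23, adjusted p = 0.228) and EPHA4 (0.30, adjusted p = 0.0995) were not called either. Without both libraries numbered 5, 8 were lower and 0 higher, where 2765 of all tested genes were called lower and 2768 higher. With all 8 libraries those counts were 1727 and 1532. An RNA level does not measure ERK activity.

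Other receptor tyrosine kinases were read for comparison with EGFR. Of 18 genes 12 were tested, with 1 higher and 6 lower, beside 12.6% and 14.2% of all tested genes, and a median log2 fold change of -0.37. FGFR4 fell from 22.9 ± 1.77 to 4.90 ± 0.613 FPKM (-2.03, SE 0.172, limma adjusted p = 3.18e-05), AXL from 115 ± 4.18 to 37.4 ± 6.21 FPKM (-1.61, SE 0.175, adjusted p = 0.000157) and FGFR1 from 18.7 ± 1.31 to 10.6 ± 1.92 FPKM (-0.78, SE 0.139, adjusted p = 0.0026). MET was at 38.3 ± 12.3 and 37.2 ± 5.35 FPKM (0.01, adjusted p = 0.97). INSR, at 0.47 (adjusted p = 0.0253), was the higher gene, and its call was lost without dexamethasone replicate 1, 3 or 4 and with no scaling between libraries. The count of lower genes was 3 without dexamethasone replicate 4. Whether EGFR differs from these genes as a group was not tested.

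**Figure D5:**
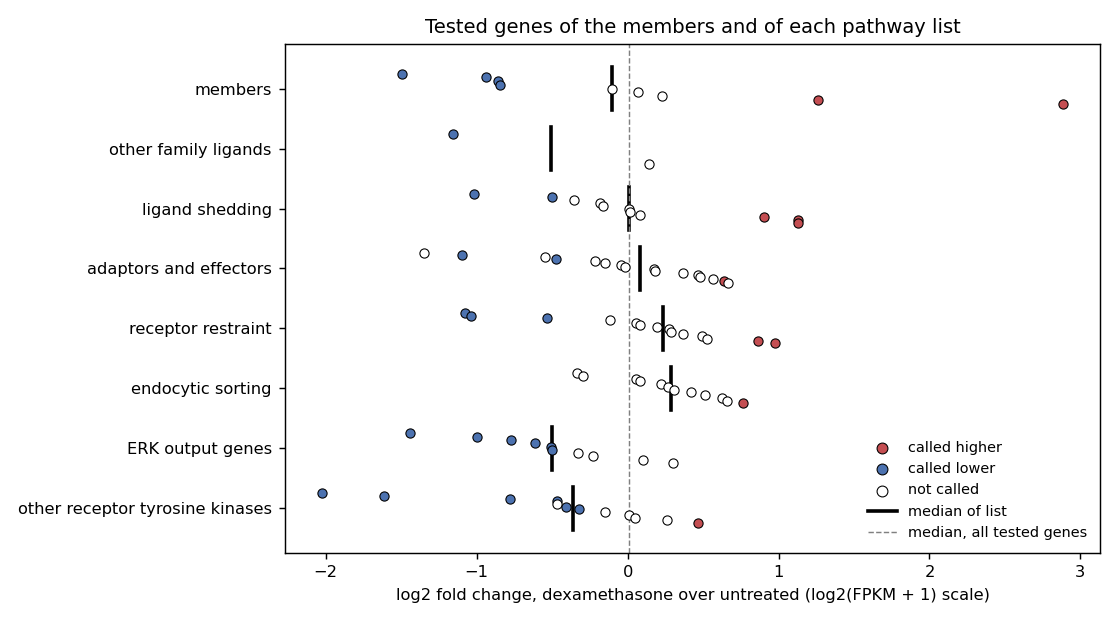
Fitted difference in log2(FPKM + 1), dexamethasone minus untreated, (x axis) of each tested gene in the member set and in 7 pathway lists (y axis), with genes called higher in red, called lower in blue and not called in white, the list median as a black bar and the median of all tested genes (0.01) as a dashed line. The ERK output genes hold 6 called lower and 0 called higher.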

How the data were processed

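RNA was measured in 8 libraries of A549 cells, 4 untreated and 4 treated with dexamethasone. Ribosomal RNA was removed and random hexamers primed the cDNA, per the labels' protocols. The submitters' processing notes name FastQC 0.11.9, cutadapt 3.4, STAR 2.7.9a, featureCounts, Subread 2.0.3, DESeq2 1.32.0 and the build GRCh38, without the role of each. The deposited values are not whole numbers and were read as FPKM, a unit that neither labels nor files name: they sum to 338989 to 373855 per library, and multiplied by the longest transcript length to 1015000000 to 1106000000. The step that made them, whether strand was used and which annotation release are not given in the sources used here. In genes with 1 annotated transcript, low values lay within 0.1 of a whole fragment in 36.7% to 45.7% of cases, and no test on counts was made.

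Scaling between libraries used unweighted TMM factors (trim 0.3 for M, 0.05 for A). The test of log2(FPKM + 1) was limma 3.58.1 under R 4.3.3 (trend and robust, group as the only term, all 8 libraries). Genes at 0.5 FPKM or more in at least 4 libraries entered, or 3 where a library was left out. A fold change on this scale understates that of low genes. Ratios of members used deposited FPKM + 0.01 and an exact permutation test over 70 arrangements. On simulated data of 4 against 4 libraries, 47.5% of 200 genes changed 2-fold were recovered with 4 false calls in 11912 genes, 78.5% of 200 changed 4-fold with 11 in 11909, 4.5% of 200 changed 1.5-fold with 2 in 11916, and with no change 0 genes were called in 11922. The simulation drew each gene independently with its untreated mean and spread, so no library in it was shifted across many genes together. Both libraries numbered 5 stood apart in the measured data, so these recovery and false-call figures do not cover such a shift. Other settings tried were pseudocounts, filters, scalings, the variance prior, a replicate block, removal of GC trends and left-out libraries. GC content and overlaps came from GENCODE 44, in which 19065 of 19158 genes were found by identifier; coordinates are those deposited with the values (GRCh38), and 6232 equal GENCODE 44.

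The members and lists were chosen with earlier results of these data known. Named genes were the 10 members, FKBP5, up to 3 called genes of smallest p in each list (with none called, the 2 of highest level), and the 5 genes most like ERRFI1 and the 5 most like AREG. ADAM10, ADAM17, RHBDF2, CBLB, SH3KBP1, CCND1, MET, NRG2, INSR, SPRY2, SPRY4, DUSP4, DUSP6, EPHA4, ETV5 and SOS2 were named after their values were seen. EPGN was not analysed here.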

Additional observations from a re-analysis of the deposited data

Results flagged for a closer look

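Within groups of 4 libraries, the most distant library was set against the range of its group for the members and named genes, in 74 groups of values. In 11 of them a library stood apart, 9 times untreated replicate 5 and 2 times dexamethasone replicate 5. Of the 11, 6 belong to genes chosen for their likeness to ERRFI1 over the same libraries, so their number follows in part from that choice. Without the genes named for likeness, 5 of 54 groups had such a library. Chance gives about 1 in 20 for independent groups. All genes were read in the same libraries, so the groups are not independent and this rate cannot test them.

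Among members, ERRFI1 stood apart in untreated replicate 5, at 9.84 FPKM against 20.2 to 21.0 FPKM in the other untreated libraries. The same library was also lowest for STOM (16.4 FPKM against 35.9 to 37.6), TLCD2 (0.537 against 1.01 to 1.09), GOLPH3 (18.6 against 29.7 to 30.9), DKK1 (46.1 against 83.7 to 88.7), EPB41L4A (1.85 against 3.42 to 3.53) and RAB11FIP1 (8.05 against 10.2 to 10.4). It was highest for ADAM15 (29.9 FPKM against 21.2 to 21.7) and GRB7 (12.1 against 8.06 to 8.75). Dexamethasone replicate 5 was highest for ETV4, at 11.6 FPKM against 9.04 to 9.38, and lowest for TLCD2, at 3.23 against 3.93 to 3.98.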

How the results depend on the processing

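All 6 called members kept their direction and their call under each of the 19 other settings. ERBB2 changed sign when untreated replicate 4 (-0.0459) or dexamethasone replicate 5 (-0.0532) was left out, reached 0.2523 at most among such settings, and was called higher with the replicate block and GC trends removed together, a setting chosen after seeing the data (0.28, limma adjusted p = 0.0238). With GC trends removed, ERBB3 was at 0.0476 and BTC at -0.0694, with or without the block. Counts over all genes were 2909 higher and 2830 lower with the replicate block, 2768 and 2765 without both libraries numbered 5, and 2682 and 2667 with block and GC trends removed, against 1532 and 1727. Of the 3259 genes called without the block, 3258 were also called with the block. Pathway genes called higher numbered 21 with the block, 15 with GC trends removed, 16 without both libraries numbered 5 and 17 with block and GC trends removed, against 8. With the block, genes called higher numbered 6 adaptors, 5 regulators of receptor removal, 5 endocytic genes and 1 ERK readout. Those called lower in the same lists numbered 3 adaptors, 3 regulators of receptor removal, 2 endocytic genes and 7 ERK readouts. Deviations from group means correlated at 0.294, 0.0671, 0.315 and 0.713 between libraries numbered 1, 3, 4 and 5. Not every library correlated best with its own number, and both libraries numbered 5 stood apart. These correlations therefore cannot settle whether equal numbers were pairs. The mitochondrial share ordered the libraries alike in both groups. In replicates 1, 3, 4 and 5 it was 6.04%, 3.45%, 3.71% and 1.74% in untreated and 9.44%, 5.91%, 6.3% and 2.55% in dexamethasone libraries. The main fit did not take the numbers as pairs, and pairing was not tested.

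Leaving out single libraries gave log2 ratio differences of -1.48 to -0.76 for ERBB2 to EGFR, -1.68 to -1.26 for ERBB3 to EGFR and 1.51 to 1.75 for ERRFI1 to EGFR. Without both libraries numbered 5 they were -0.88, -1.45 and 1.80 (adjusted exact p = 0.133), where 3 against 3 libraries allow no p below 0.1. Under the replicate block they were -1.21, -1.49 and 1.68 (adjusted exact p = 0.167), where 4 pairs allow no p below 0.125. Depth limits ERBB4, and the levels of BTC and HBEGF near 1 FPKM make their fold changes depend on the pseudocount: they were 0.55 and -1.48 with 0.1.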

Other observations

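SOS2, an exchange factor for RAS in the adaptor list, varied widely within both groups, at 123, 23.8, 49.1 and 124 FPKM without dexamethasone and 8.08, 88.1, 126 and 3.59 FPKM with it. Its fitted difference, -1.35 on the log2 scale with an SE of 1.06 (adjusted p = 0.369 by limma), did not pass the test.

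Deviations of members from their group means were also set against each other over the 8 libraries, as a description. ERRFI1 deviated with TGFA (r = 0.867), BTC (0.805) and EGFR (0.790), and against ERBB2 (-0.870). Both libraries numbered 5, low in most members and high in ERBB2, are among these points.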
